A study of Mus musculus with 12 samples.

Results

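The genes described here were 10 members of the piRNA pathway, taken by name from a table of 38986 genes: Piwil1, Piwil2, Piwil4, Mael, Tdrd1, Tdrd9, Tdrd12, Ddx4, Asz1 and Mov10l1. They were followed in RNA-seq libraries of teratomas grown from mouse embryonic stem (ES) cells that carried an empty vector or 1 of 3 forms of Dnmt3L, a cofactor of the de novo DNA methyltransferases.

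piRNAs are small RNAs of the germ line that are loaded onto Piwi proteins and guide them to transcripts of transposable elements. Tudor-domain proteins and helicases gather with the Piwi proteins in cytoplasmic granules called nuage, where piRNAs are made and amplified. In fetal male germ cells the nuclear arm of the pathway directs DNA methylation to transposon promoters, a step that also needs Dnmt3L, and several genes of the pathway are themselves kept silent in somatic cells by methylation of CpG-rich promoters.

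All groups were R1 mouse ES cells transduced with the lentiviral vector pEZ-LV235, in which a CAG promoter drives the insert, selected with puromycin and grown in serum with LIF. The ET group carried the vector alone, the WT group carried wild-type Dnmt3L, and the K238R and K412R groups carried Dnmt3L in which the named lysine, an acetylation site, was changed to arginine. From each line 5000000 cells were injected under the skin of 8-week-old male NOD-PrkdcEM1 mice, which are immunodeficient, and the teratomas were taken on day 21. Each group had 3 libraries. The sources do not say that the 3 came from separate mice or from separately derived lines, so the p-values below measure the spread between these libraries, which may be in part technical. A teratoma is a mixed tissue that also holds host cells, and fewer cells of a type cannot be told apart from less RNA per cell.

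Library totals ran from 16957677 to 18546100 estimated counts, a ratio of 1.09, so depth was nearly even. Dnmt3l, which checks the labels, gave 39, 11 and 137 counts in ET replicates 1, 2 and 3, and 2941, 3643 and 3581 counts in WT. It gave 699, 677 and 463 counts in K412R, but 35, 20 and 10 counts in the K238R-labelled libraries, within or below the range of ET. The K238R transcript was thus not detected above the empty-vector level, and these 3 are called K238R-labelled throughout. ET replicate 2 stood apart from the other ET libraries in germ cell markers, and WT replicate 1 stood apart from the other WT libraries in naive pluripotency markers, as given with the results they touch.

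All 10 members passed the filter on low counts and were tested among 18405 genes, and 9 had a count in every library. Levels are given as CPM, the count per 1000000 counts of the library total. The summed level of the 10 members was 25.9, 25.8 and 32.4 CPM in ET and 20.5, 20.0 and 14.7 CPM in WT. It was 32.3, 48.6 and 44.2 CPM in the K238R-labelled libraries and 15.5, 24.4 and 23.8 CPM in K412R. The sum in WT lay below every ET library, and the sum in the 2 highest K238R-labelled libraries lay above every other library. Mael alone made up 28.6% to 57.8% of the members' counts. Without it the sums averaged 17.0 ± 6.11 CPM in ET, 9.73 ± 2.06 in WT, 21.7 ± 3.86 in the K238R-labelled libraries and 12.6 ± 2.42 in K412R (SD, n = 3).

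Set per kilobase of the longest annotated transcript, the mean level over the 12 libraries was 7.15 CPM per kb for Mael, 1.34 for Ddx4 and 1.04 for Mov10l1. The other 7 members lay between 0.0991 CPM per kb for Tdrd9 and 0.585 for Tdrd12. Set per kilobase of the shortest annotated transcript instead, the mean was 7.82 CPM per kb for Mael, 3.94 for Tdrd12, 3.43 for Mov10l1 and 1.46 for Ddx4. Of these 4 members Mael was the highest on both scales, the order of the other 3 depended on the transcript taken, and several members were read from only a few counts per library.

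**Figure D1:**
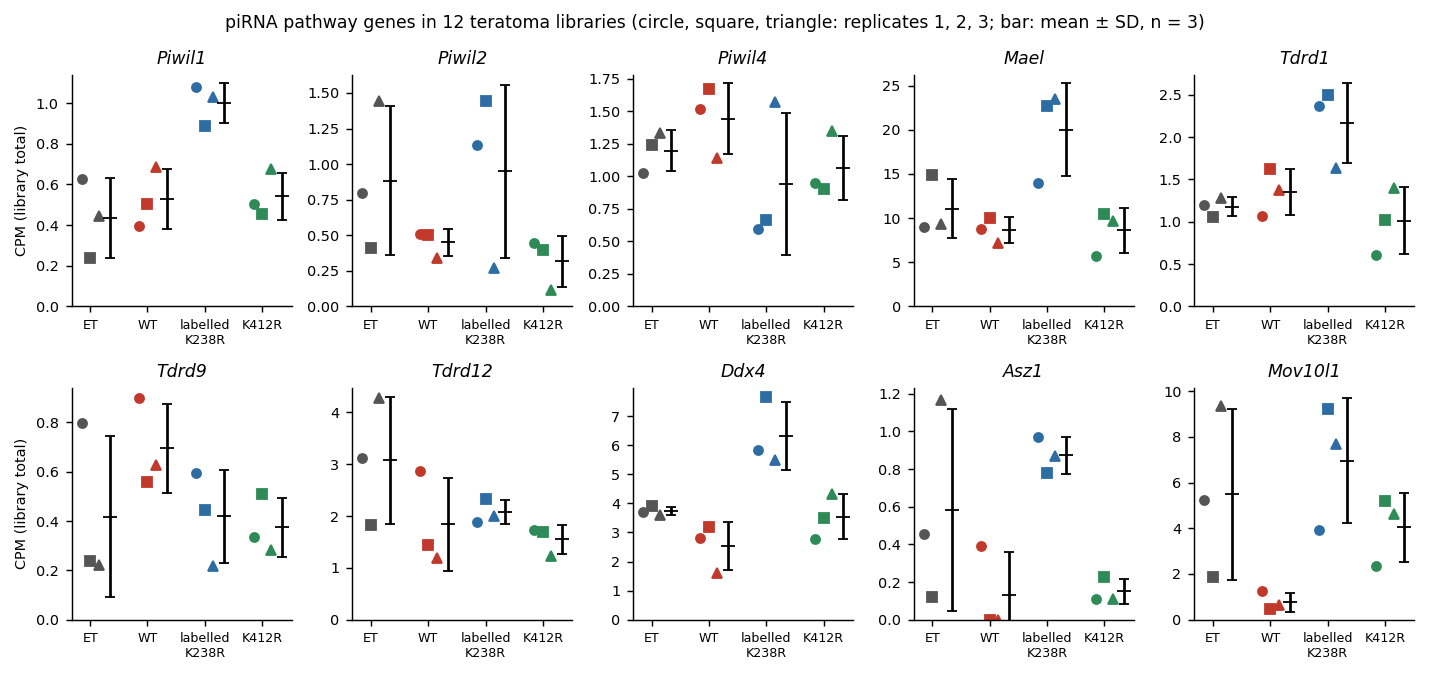
Level of each member in CPM of the library total (vertical axis, from 0) in the 12 libraries, by group; symbols mark replicates 1 to 3 and the bar beside them is the mean ± SD (n = 3). Piwil1, Tdrd1 and Ddx4 were higher in all 3 K238R-labelled libraries than in every ET library, and Mov10l1 was lower in all 3 WT libraries than in every other library.

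Among the Piwi proteins, which carry the piRNAs, Piwil1 (MIWI, the Piwi protein of meiotic and postmeiotic male germ cells) had 11, 4 and 8 counts in ET, 7, 9 and 12 in WT, 9, 8 and 12 in K412R and 20, 16 and 19 in the K238R-labelled libraries. The K238R-labelled libraries were highest, at 0.9996 ± 0.0986 CPM, and did not overlap K412R at 0.542 ± 0.116, WT at 0.527 ± 0.147 or ET at 0.435 ± 0.195 CPM (SD, n = 3). The 3 lower groups overlapped one another. Piwil2 (MILI, which binds the first piRNAs of fetal male germ cells) had 14, 7 and 26 counts in ET, 9, 9 and 6 in WT, 8, 7 and 2 in K412R and 21, 26 and 5 in the K238R-labelled libraries. Its groups overlapped in every comparison, with the ET libraries and those labelled K238R widely spread. Piwil4 (MIWI2, the nuclear Piwi protein that acts in transposon methylation) had 18, 21 and 24 counts in ET, 27, 30 and 20 in WT, 17, 16 and 24 in K412R and 11, 12 and 29 in the K238R-labelled libraries. Piwil4 was the only Piwi member whose mean was lowest in the K238R-labelled libraries, at 0.945 ± 0.547 CPM against 1.44 ± 0.273 in WT, and these groups overlapped. The exons of Piwil4 overlap those of Gm10706 on the opposite strand, and since the strand setting of the counting is not given in the sources used here, reads of these 2 genes could be mixed.

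The Tudor-domain proteins scaffold the nuage. Tdrd1, which binds methylated arginines of Piwil2, had 21, 18 and 23 counts in ET, 19, 29 and 24 in WT, 11, 18 and 25 in K412R and 44, 45 and 30 in the K238R-labelled libraries. All 3 K238R-labelled libraries, at 2.17 ± 0.471 CPM, lay above WT at 1.35 ± 0.275, ET at 1.18 ± 0.110 and K412R at 1.01 ± 0.395 CPM, replicate 3 only just above WT replicate 2, and these 2 libraries changed places when CPM were scaled by TMM. Tdrd9, a helicase with a Tudor domain that partners Piwil4, had 14, 4 and 4 counts in ET, 16, 10 and 11 in WT, 6, 9 and 5 in K412R and 11, 8 and 4 in the K238R-labelled libraries. Its mean was highest in WT, at 0.695 ± 0.181 CPM, and WT did not overlap K412R at 0.375 ± 0.119 CPM. Tdrd12, which is needed for the secondary piRNAs bound by Piwil4, had 55, 31 and 77 counts in ET, 51, 26 and 21 in WT, 31, 30 and 22 in K412R and 35, 42 and 37 in the K238R-labelled libraries. It was highest in ET, at 3.08 ± 1.23 CPM, and every ET library lay above every K412R library at 1.55 ± 0.276 CPM.

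The remaining members are partners of the Piwi proteins in the nuage. Mael, a nuage protein needed to silence transposons in male germ cells, had 158, 253 and 167 counts in ET, 156, 180 and 125 in WT, 103, 185 and 173 in K412R and 259, 408 and 432 in the K238R-labelled libraries. The K238R-labelled libraries, at 20.0 ± 5.27 CPM, lay above all WT libraries at 8.65 ± 1.46 and all K412R libraries at 8.64 ± 2.54 CPM, and overlapped ET at 11.1 ± 3.34 CPM through ET replicate 2. Ddx4 (the mouse Vasa homologue, an RNA helicase and classic germ cell marker) had 65, 66 and 65 counts in ET, 50, 57 and 28 in WT, 50, 62 and 77 in K412R and 108, 138 and 101 in the K238R-labelled libraries. For Ddx4 the K238R-labelled libraries stood above all others at 6.33 ± 1.18 CPM, ET at 3.73 ± 0.143 lay above WT at 2.53 ± 0.827, and K412R at 3.54 ± 0.769 CPM overlapped both.

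Asz1 (GASZ), which anchors the nuage at mitochondria, had 8, 2 and 21 counts in ET, 7, 0 and 0 in WT, 2, 4 and 2 in K412R and 18, 14 and 16 in the K238R-labelled libraries. Its mean was 0.872 ± 0.0964 CPM in the K238R-labelled libraries and 0.580 ± 0.536 in ET, against 0.150 ± 0.0660 in K412R and 0.131 ± 0.227 CPM in WT. All K238R-labelled libraries lay above every WT and K412R library, and ET overlapped each of the other groups.

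Mov10l1, the helicase that feeds precursor transcripts into piRNA processing, had 92, 32 and 168 counts in ET, 22, 8 and 11 in WT, 42, 92 and 82 in K412R and 73, 166 and 142 in the K238R-labelled libraries. WT was the lowest group at 0.770 ± 0.414 CPM and overlapped none of the others, which averaged 5.49 ± 3.73 in ET, 6.96 ± 2.72 in the K238R-labelled libraries and 4.05 ± 1.51 CPM in K412R and overlapped one another.

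The promoters of 5 members are shown, Piwil1, Tdrd1, Mael and Ddx4, which were highest in the K238R-labelled libraries, and Mov10l1, which was lowest in WT. Asz1, Piwil2 and Mov10l1 also had their highest mean in the K238R-labelled libraries. The Asz1 window is not printed and held neither of the words given below, and Piwil2 had no window. RefSeq promoter windows on the build GRCm38.p6, from 250 bases before to 50 bases after the start, were found for 9 of the 10 members, 13 windows among 32851. The counted reads were mapped to GRCm39 according to the submitters' processing notes, and the count files carry no coordinates. The word CACGTG, an E-box that reads the same on both strands, stood in the windows of 6 of the 9 members: Piwil1, Mael, Tdrd1, Tdrd9, Ddx4 and Mov10l1. Of all windows 7.15% held it, and 8.09% of all genes with a window. GCGGGAA, a word bound by E2F factors and searched on both strands, stood only in the Ddx4 window, against 4.60% of all windows. These matches describe letters in the window and are not measured sites. The 5 windows are written 5′ to 3′ in the direction of transcription, with these words in capitals: Piwil1 at chr5:128735996-128736295 on the plus strand, Mael at chr1:166238695-166238994 on the minus strand, Ddx4 at chr13:112652261-112652560 on the minus strand, Tdrd1 at chr19:56825959-56826258 on the plus strand and Mov10l1 at chr15:88982744-88983043 on the plus strand.
Piwil1: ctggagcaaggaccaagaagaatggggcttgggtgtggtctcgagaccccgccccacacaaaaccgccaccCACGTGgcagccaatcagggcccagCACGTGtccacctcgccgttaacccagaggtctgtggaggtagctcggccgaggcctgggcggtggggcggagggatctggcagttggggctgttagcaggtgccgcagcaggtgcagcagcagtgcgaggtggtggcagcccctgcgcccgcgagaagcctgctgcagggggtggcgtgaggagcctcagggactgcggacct
Mael: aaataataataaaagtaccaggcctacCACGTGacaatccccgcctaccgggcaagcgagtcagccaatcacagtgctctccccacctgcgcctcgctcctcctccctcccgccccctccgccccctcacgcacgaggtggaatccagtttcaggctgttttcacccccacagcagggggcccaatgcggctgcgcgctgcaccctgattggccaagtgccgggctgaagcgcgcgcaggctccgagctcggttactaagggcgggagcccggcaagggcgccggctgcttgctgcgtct
Ddx4: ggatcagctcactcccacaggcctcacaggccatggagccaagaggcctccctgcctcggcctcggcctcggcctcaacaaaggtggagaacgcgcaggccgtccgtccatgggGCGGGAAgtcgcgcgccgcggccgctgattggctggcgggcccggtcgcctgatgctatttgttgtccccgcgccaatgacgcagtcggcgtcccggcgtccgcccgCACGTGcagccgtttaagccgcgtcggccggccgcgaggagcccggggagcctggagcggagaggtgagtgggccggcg
Tdrd1: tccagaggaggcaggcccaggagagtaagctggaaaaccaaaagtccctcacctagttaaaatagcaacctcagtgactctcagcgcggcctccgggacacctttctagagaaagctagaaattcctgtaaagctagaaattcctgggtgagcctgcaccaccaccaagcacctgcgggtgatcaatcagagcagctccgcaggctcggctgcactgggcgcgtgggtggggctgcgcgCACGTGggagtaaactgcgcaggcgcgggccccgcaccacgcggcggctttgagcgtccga
Mov10l1: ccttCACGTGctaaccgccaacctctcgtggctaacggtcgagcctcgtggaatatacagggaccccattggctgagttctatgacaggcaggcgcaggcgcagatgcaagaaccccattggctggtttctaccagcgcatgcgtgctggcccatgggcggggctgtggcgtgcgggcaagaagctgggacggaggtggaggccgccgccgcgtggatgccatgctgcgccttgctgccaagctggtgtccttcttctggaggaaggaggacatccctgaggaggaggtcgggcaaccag

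The E-box began 29 bases before the start in Ddx4 and 11 bases before it in Tdrd1, and lay farther out in Mael and Mov10l1, at 223 and 246 bases. In Tdrd1 a further window, starting from another transcript, overlaps this one and holds the same word. Piwil1 and Tdrd9 each held the word at 2 places, as did 0.594% of all windows. Asz1, Tdrd12 and Piwil4 held none.

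The ratio of observed to expected CpG, the measure by which CpG-rich promoters are told from CpG-poor ones, was 0.98 in the Ddx4 window with 38 CpG dinucleotides, and 0.78 in Mael with 24. It was 0.78 in Asz1, 0.73 in the Tdrd1 window shown, 0.67 in Mov10l1 and 0.54 in Piwil1, against a median of 0.38 over all windows. A ratio over 0.6 was found in 6 of the 13 member windows, which belong to 5 of the 9 members, and in 35.8% of all windows. Tdrd9 at 0.43, a Tdrd1 window at 0.22, both Tdrd12 windows at 0.41 and 0.34 and the Piwil4 windows at 0.54 and 0.00 lay below it. DNA methylation was not analysed here.

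**Figure D2:**
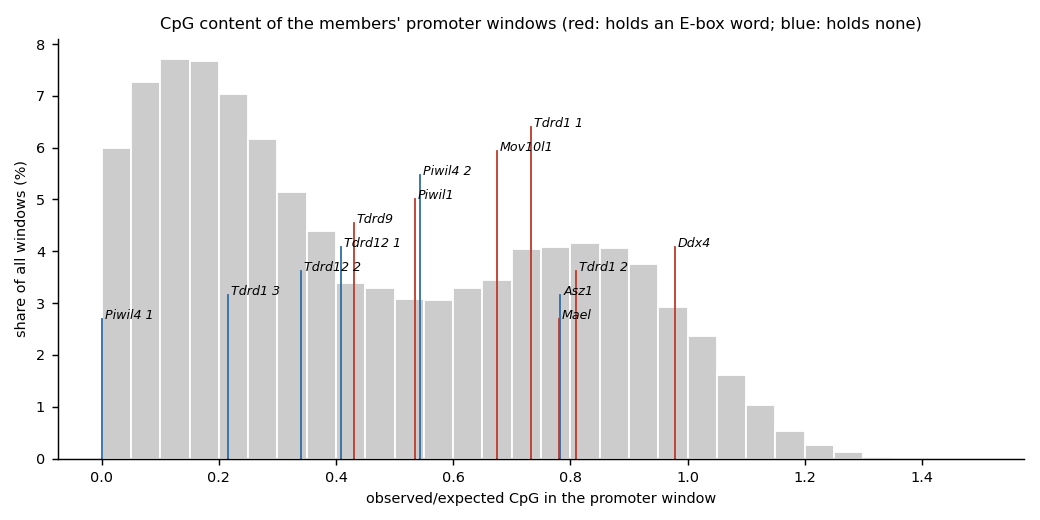
Distribution of the observed/expected CpG ratio over 32851 promoter windows (grey bars, share of windows in percent) with the 13 windows of 9 members as lines, red where the window holds the E-box word; line height only spaces the labels, and numbers after a name mark several windows of a gene. Ddx4 lies farthest to the right at 0.98, and 1 window of Piwil4 (0.00) and 1 of Tdrd1 (0.22) lie in the CpG-poor part. The windows of Tdrd12 lie near the median of all windows, 0.38.

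The 6 comparisons between groups were fitted together with edgeR's quasi-likelihood test, and adjusted p-values are Benjamini-Hochberg values over all 18405 genes. They share groups, so a group that lies high or low enters several of them. No member reached an adjusted p under 0.05 in any of the 6. Each comparison therefore gives 3 counts of members, at that threshold, at an unadjusted p under 0.05, and by whether the 3 libraries of 1 group all lay above or below the 3 of the other, each beside the share of all tested genes that met the same rule in either direction.

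**Figure D3:**
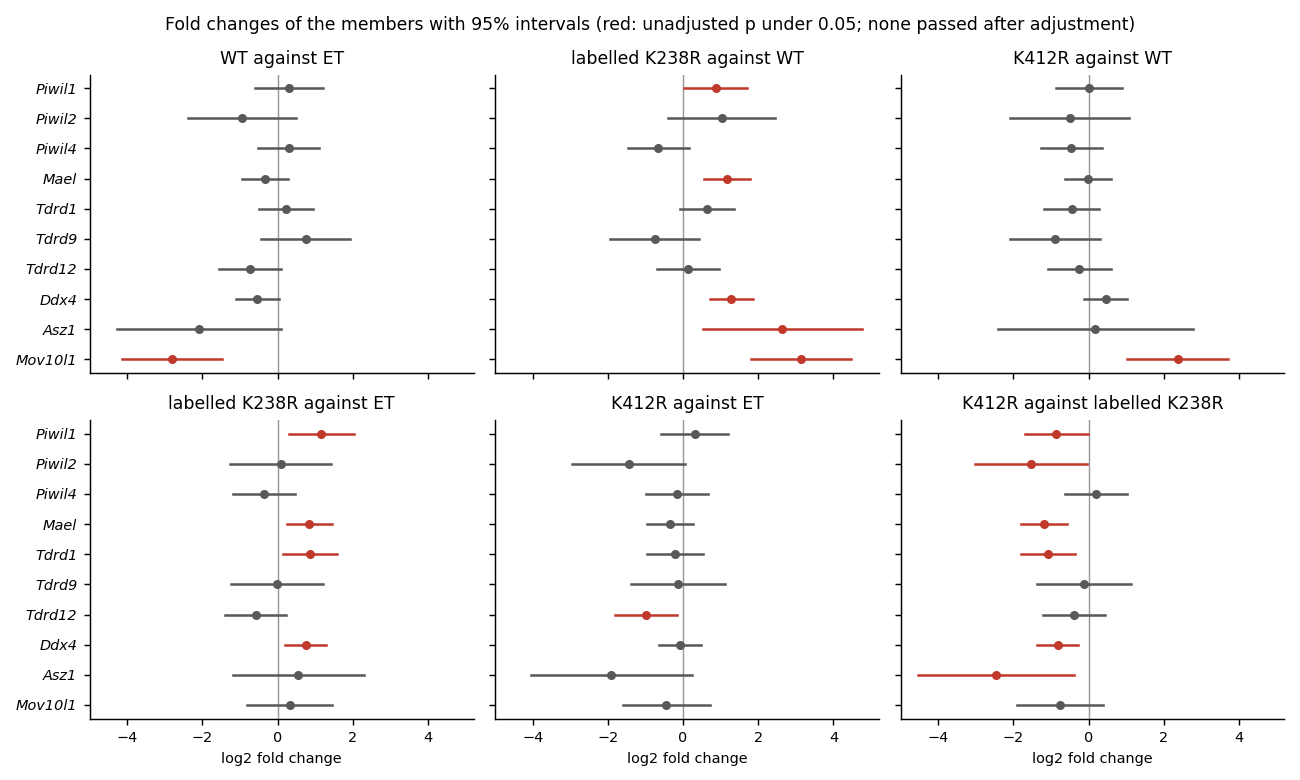
Log2 fold change of each member (horizontal axis) in the 6 comparisons, with the 95% interval back-computed from the edgeR test. Red marks an unadjusted p under 0.05. Mov10l1 lies far below 0 for WT against ET and far above 0 for both other forms against WT, and all 4 red members of the K238R-labelled libraries against ET lie above 0.

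WT against ET compares the pathway with and without added wild-type Dnmt3L. Mov10l1 was at -2.81 on the log2 scale (SE 0.61), 7.01-fold less in WT, with an adjusted p of 0.0990 in edgeR. By DESeq2 its adjusted p was 0.000312, and it passed in edgeR without ET replicate 2 (0.00421) and without WT replicate 1 (0.0393). Those 2 edgeR fits called 5820 and 1301 genes in this comparison, against 9 with all libraries. Over all alternatives the log2 fold change of Mov10l1 stayed between -3.70 and -2.17 and its adjusted p between 0.000312 and 0.359. Of the 10 members, 0 passed the adjusted threshold in edgeR and 1 in DESeq2, against 0.0489% of all genes in edgeR and 10.5% of the genes to which DESeq2 gave an adjusted p. At an unadjusted p 1 member, Mov10l1, passed against 29.1% of all genes. This count was 3 without ET replicate 2 or without WT replicate 1, the same fits that called many more of all genes. It was 2 without ET replicate 1 or WT replicate 2. The groups did not overlap for Ddx4 and Mov10l1, 2 members and both lower, against 20.8% of all genes. Ddx4 was at -0.54 (SE 0.26, edgeR adjusted p = 0.189). The log2 fold change of Asz1 was -2.09 with a 95% interval from -4.27 to 0.09, and that of Mael was -0.33 with an interval from -0.94 to 0.28. The members' share at an unadjusted p lay below that of all genes, and 6 of the 10 had a negative fold change, with a median of -0.43 against -0.01 over all genes.

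The K238R-labelled libraries against WT differed in the same direction for every member that met any of the rules. Mov10l1 was at 3.13 on the log2 scale (SE 0.61, 8.74-fold, edgeR adjusted p = 0.0698), Ddx4 at 1.28 (SE 0.26, 2.43-fold, adjusted p = 0.0712) and Mael at 1.17 (SE 0.28, 2.25-fold, adjusted p = 0.0984). In DESeq2 these 3 passed, with adjusted p-values of 1.83e-05, 0.000813 and 0.00410. In edgeR all 3 also passed without ET replicate 2, a library outside this comparison that enters the shared spread. Their adjusted p-values in edgeR were then 0.00657, 0.0229 and 0.0238, and Mov10l1 passed without ET replicate 3 (0.0414). The fit without ET replicate 2 called 807 genes in this comparison and that without ET replicate 3 called 125, against 32 with all libraries. Over the alternatives the adjusted p ran up to 0.249, 0.235 and 0.302 for Mov10l1, Ddx4 and Mael. Asz1 was at 2.64 (SE 0.97, adjusted p = 0.205), a value set against only 7 counts in 3 WT libraries, all in replicate 1, and Piwil1 at 0.87 (SE 0.38, adjusted p = 0.271). Of the 10 members, 0 passed the adjusted threshold in edgeR and 3 in DESeq2, against 0.174% of all genes in edgeR and 4.13% in DESeq2. At an unadjusted p 5 members passed, all higher, against 17.6% of all genes, and this count was 3 without WT replicate 2 and 7 without K238R replicate 3. The groups did not overlap for 6 members, all higher in the K238R-labelled libraries, against 24.0% of all genes, and for 5 on the TMM scale, where Tdrd1 overlapped. The median of the members was 0.95 against 0.00 over all genes.

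For K412R against WT the member with the largest difference was Mov10l1, at 2.37 on the log2 scale (SE 0.61, 5.16-fold, edgeR adjusted p = 0.0683, DESeq2 adjusted p = 0.00179). In edgeR Mov10l1 passed without ET replicate 2 (0.0184), without ET replicate 3 (0.0400) and without WT replicate 1 (0.0494). These fits called 1540, 698 and 1008 genes in this comparison, against 372 with all libraries. Over the alternatives the adjusted p of Mov10l1 reached 0.256. Mael differed by -0.02, with a 95% interval from -0.63 to 0.59, and Ddx4 by 0.46, with an interval from -0.11 to 1.03. Of the 10 members, 0 passed the adjusted threshold in edgeR and 1 in DESeq2, against 2.02% of all genes in edgeR and 9.26% in DESeq2. Only 1 member passed at an unadjusted p, against 22.8% of all genes, and 2 without WT replicate 1 or without WT replicate 2. The groups did not overlap for 2 members, Mov10l1 higher and Tdrd9 lower, against 31.1% of all genes. Tdrd9 was at -0.89 (SE 0.55, edgeR adjusted p = 0.347). The median of the members was -0.13 against 0.01 over all genes.

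The K238R-labelled libraries against ET compare 2 sets of libraries with low Dnmt3l counts. Piwil1 was at 1.16 on the log2 scale (SE 0.39), Tdrd1 at 0.86 (SE 0.33), Mael at 0.84 (SE 0.27) and Ddx4 at 0.75 (SE 0.25), each with an edgeR adjusted p of 0.805. Of the 10 members, 0 passed the adjusted threshold in either tool, against 0% of all genes in edgeR, where no gene was called, and 0.0467% in DESeq2, which called 10 genes. At an unadjusted p 4 members passed in edgeR, all higher, against 5.58% of all genes. In DESeq2 4 members did so, and the share of all genes was not computed for it. In edgeR this count was 2 without K238R replicate 2 and 5 without K238R replicate 3. The groups did not overlap for 3 members, Piwil1, Tdrd1 and Ddx4, all higher, against 9.18% of all genes. Over all alternatives the fold changes of these 4 members ran from 0.89 to 1.50 for Piwil1, from 0.73 to 1.05 for Tdrd1, from 0.71 to 1.12 for Mael and from 0.57 to 0.86 for Ddx4, and none passed after adjustment. These members were picked for their values here, and groups without overlap leave little room for a change of sign. The E-box word stood in the windows of 6 of the 9 members with a window, these 4, Mov10l1 and Tdrd9. In this comparison Tdrd9 was at -0.01. A relation of the word to the fold changes was not tested. Mov10l1 differed by 0.32, with a 95% interval from -0.82 to 1.46, and Asz1 by 0.55, with an interval from -1.19 to 2.29. The Asz1 window held no E-box word.

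For K412R against ET, Tdrd12 was at -0.98 (SE 0.38, edgeR adjusted p = 0.584), with a 95% interval from -1.80 to -0.15. Of the 10 members, 0 passed the adjusted threshold in either tool, against 0% of all genes in edgeR and 0.506% in DESeq2, which called 87 genes. At an unadjusted p 1 member passed in each tool, against 7.86% of all genes in edgeR. This count was 3 without ET replicate 2, 2 without WT replicate 1 or K238R replicate 3, and 0 without ET replicate 3 or K412R replicate 3. The groups did not overlap for 1 member, Tdrd12, against 10.8% of all genes. Of the other 9 members, 8 had a negative fold change, and the median of all 10 was -0.29 against -0.02 over all genes.

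K412R against the K238R-labelled libraries set a group with intermediate Dnmt3l counts against one at the empty-vector level. Mael was at -1.19 on the log2 scale (SE 0.28, 2.28-fold, edgeR adjusted p = 0.144, DESeq2 adjusted p = 0.00635). Without ET replicate 2 its adjusted p in edgeR was 0.0480, in a fit that called 193 genes against 4 with all libraries. Over the alternatives the adjusted p of Mael ran from 0.00635 to 0.515. Asz1 was at -2.46 (SE 0.95), Piwil2 at -1.53 (SE 0.68), Tdrd1 at -1.08 (SE 0.33), Piwil1 at -0.85 (SE 0.38) and Ddx4 at -0.82 (SE 0.25), with edgeR adjusted p-values between 0.230 and 0.410. Of the 10 members, 0 passed the adjusted threshold in edgeR and 1 in DESeq2, against 0.0217% of all genes in edgeR and 1.85% in DESeq2. At an unadjusted p 6 members passed, all lower in K412R, against 11.9% of all genes, and 3 without K412R replicate 3. The groups did not overlap for 6 members, Piwil1, Mael, Tdrd1, Tdrd12, Ddx4 and Asz1, all lower in K412R, against 19.0% of all genes. Tdrd12 was at -0.39 (SE 0.38, edgeR adjusted p = 0.778), and for Piwil2 the groups overlapped. Mov10l1 differed by -0.76, with a 95% interval from -1.91 to 0.39.

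The rest of the pathway was followed in a list of 22 further genes, among them Tudor proteins, piRNA-trimming enzymes and cofactors, of which 21 stood under these symbols in the table and 18 were tested. In edgeR 0 passed the adjusted threshold in any comparison. For WT against ET 4 were higher and 7 lower at an unadjusted p, against 29.1% of all genes in either direction. By DESeq2 2 were higher and 4 lower after adjustment, against 10.5%. The 3 with the largest absolute fold change in WT against ET were Tex19.1, a germline transposon-control gene, at -2.96 (SE 0.75, edgeR adjusted p = 0.101), Rnf17, a Tudor protein, at -1.82 (SE 0.42, adjusted p = 0.101) and Fkbp6, a chaperone partner in piRNA biogenesis, at -1.81 (SE 0.78, adjusted p = 0.153). For the K238R-labelled libraries against WT 7 of the 18 were higher and 0 lower at an unadjusted p, against 17.6% of all genes. After adjustment by DESeq2 4 of them were higher, against 4.13%. For the K238R-labelled libraries against ET 1 of the 18 was higher and 0 were lower at an unadjusted p, against 5.58% of all genes. The median of these 18 was 0.07, where 4 of the 10 members were higher with a median of 0.43. The difference between these lists was not tested. For unadjusted p-values 3 were higher and 2 lower for K412R against WT, against 22.8% of all genes. By this rule 1 was lower for K412R against ET, against 7.86%, and 2 were lower for K412R against the K238R-labelled libraries, against 11.9%. After adjustment by DESeq2 1 was higher for K412R against WT, against 9.26% of all genes.

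Markers of germ cells outside the pathway moved with some members and less with others. The summed level of 21 such genes was 112 to 244 CPM in ET, 84.3 to 118 in WT, 158 to 160 in the K238R-labelled libraries and 115 to 144 CPM in K412R, with the lowest ET value in replicate 2. Kit alone made up a large part of these sums, with means of 56.7 CPM in ET and 62.3 in WT. It was the 1 tested gene of the list with a positive fold change in WT against ET (0.16), and 16 were negative. Dazl, Sohlh2 and Stra8 had a count in every library, and Figla, an oocyte factor, was at 0 in 10 of the 12. Of the 17 tested, 0 passed the adjusted threshold in edgeR in any comparison. For WT against ET 12 were lower and 0 higher at an unadjusted p, against 29.1% of all genes in either direction. After adjustment by DESeq2 8 of them were lower, against 10.5% of all genes. Stra8, which marks entry into meiosis, was at -4.14 (SE 0.92, edgeR adjusted p = 0.0990), Dazl, an RNA-binding protein of germ cells, at -3.71 (SE 0.91, adjusted p = 0.101) and Sohlh2, a germ cell transcription factor, at -2.87 (SE 0.64, adjusted p = 0.101). For the K238R-labelled libraries against WT 10 of the 17 were higher at an unadjusted p, against 17.6% of all genes. After adjustment by DESeq2 5 of them were higher, against 4.13%. At an unadjusted p 3 were higher for K412R against WT, against 22.8% of all genes. By the same rule 1 was lower for K412R against ET, against 7.86% of all genes, and 2 were lower for K412R against the K238R-labelled libraries, against 11.9%. For the K238R-labelled libraries against ET 0 of the 17 passed at an unadjusted p in edgeR or in DESeq2, against 5.58% of all genes in edgeR. Of the 17, 13 were negative and the median was -0.27, beside 4 of 10 members higher and their median of 0.43.

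Over the 12 libraries, on the log2 scale, Pearson's r with the summed germ cell markers was 0.87 for Mov10l1, 0.85 for Asz1 and 0.71 for Tdrd12, but 0.49 for Ddx4, 0.24 for Mael, 0.21 for Tdrd1 and 0.28 for Piwil1. The points share the 4 groups, so these values describe the libraries and carry no test. The level of Mov10l1 within ET followed the marker sum, lowest in replicate 2 and highest in replicate 3, whereas Ddx4 was nearly level across the same 3 libraries. Naive pluripotency markers summed to 110 to 205 CPM in ET, 47.4 to 103 in WT, 70.9 to 110 in the K238R-labelled libraries and 89.0 to 105 CPM in K412R, with the highest WT value in replicate 1, and gave an r of 0.77 with Tdrd12, 0.69 with Asz1, 0.67 with Mov10l1 and 0.54 with Piwil2. All 12 of these genes but Fgf4 had a count in every library. Cardiac muscle markers summed to 42.9 to 170 CPM in ET, 115 to 498 in WT, 53.9 to 203 in the K238R-labelled libraries and 62.7 to 70.1 CPM in K412R, and gave an r of -0.71 with Mov10l1. Of the 9 cardiac genes Nkx2-5 was at 0 in 5 libraries. The sum was carried largely by Actc1, which averaged 41.1 CPM in ET and 165 in WT. In WT against ET 4 of the 6 tested genes were positive, while Myh6 was at -0.075 and Tnni3 at -0.087 on the log2 scale, so the list did not rise as a whole. Motile cilium markers summed to 244 to 386 CPM in ET, 342 to 356 in WT, 252 to 306 in the K238R-labelled libraries and 326 to 444 CPM in K412R, so that every K238R-labelled library lay below every WT and K412R library. Their r was -0.82 with Piwil2, -0.74 with Asz1 and -0.67 with Tdrd12, and all 9 of these genes had a count in every library. The part of these cell types in the members' differences was not tested.

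**Figure D4:**
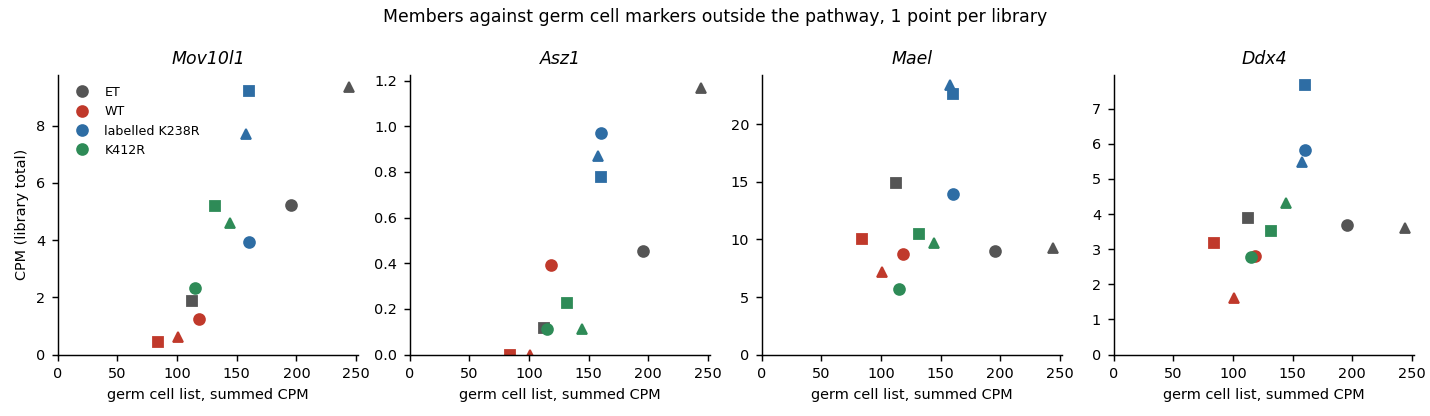
CPM of 4 members (vertical axis) against the summed CPM of 21 germ cell markers outside the pathway (horizontal axis), 1 point per library, coloured by group with symbols for replicates as in the plot of levels. Mov10l1 and Asz1 are higher in libraries with a larger marker sum, while Mael and Ddx4 are highest in the K238R-labelled libraries at a middle marker sum.

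**Figure D5:**
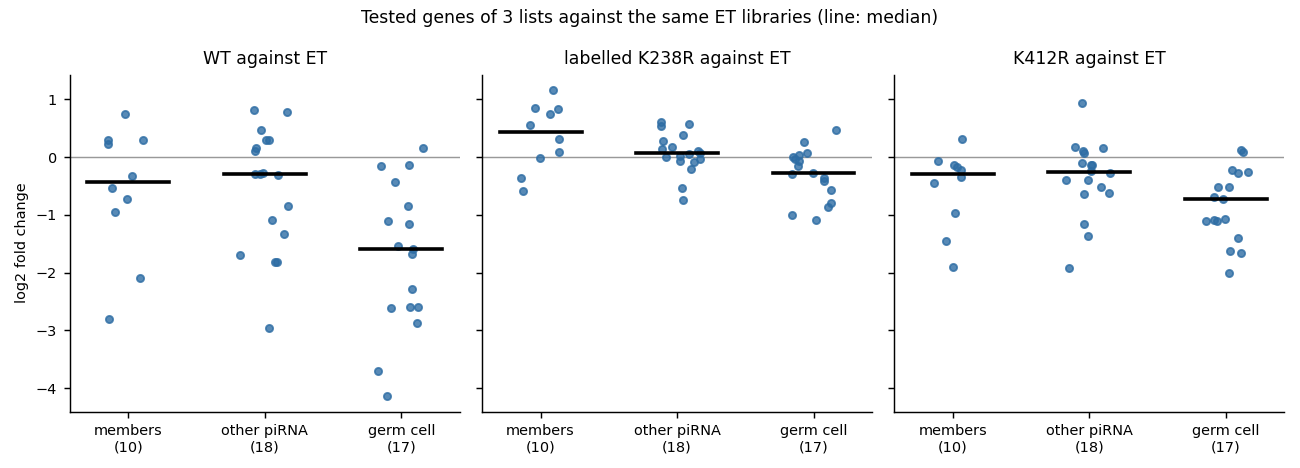
Log2 fold change (vertical axis) of each tested gene of 3 lists against the same 3 ET libraries, with the median as a line. In the K238R-labelled libraries the median is 0.43 for the members, 0.07 for the other piRNA genes and -0.27 for the germ cell markers.

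The members did not form 1 block. Among the 45 pairs of members, r of the log2 levels over the 12 libraries ran from -0.50 to 0.81 with a median of 0.20, and 30 pairs were positive. The mean of the standardized member levels was highest in the K238R-labelled libraries, at 0.55, 0.89 and 0.49, and was -0.03, -0.27 and -0.61 in WT, 0.27, -0.45 and 0.43 in ET and -0.69, -0.19 and -0.40 in K412R. Outside the members, the genes whose log2 level was most like this mean over the 12 libraries were Gm12655 (r = 0.91), Zfp264 (0.89), 1700018B24Rik (0.88), Gm31560 (0.87) and Rhox2a (0.86). By Spearman's rho Gm12655 was also first, while Rhox2a fell to place 198.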

How the data were processed

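The authors made RNA-seq libraries of teratomas from poly(A)-selected mRNA (CORALL V2 kit), trimmed reads with fastp, mapped them with STAR to GRCm39 and quantified genes with Salmon. GATK is also named in the submitters' notes with no role, and the annotation and any use of molecular identifiers are not given in the sources used here. They deposited estimated counts per gene, rounded to whole numbers and not normalized, 1 column per library; 7918 of 38986 genes had no count.

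From these, edgeR 4.0.16 (R 4.3.3) was run on all 12 libraries in a single fit (TMM, filterByExpr, glmQLFit and glmQLFTest, 1 mean per group), with Benjamini-Hochberg adjustment over 18405 genes. DESeq2 1.42.0 was an alternative to the test, as it is the tool of the study's methods; members to which it gave no adjusted p were not counted as called. CPM use library totals, and likeness used log2 TMM CPM with a prior count of 2. Groups came from the sample titles. The fit was tested on simulated data. Each SE was back-computed as the absolute log2 fold change divided by the square root of the F statistic of the edgeR test. Confidence intervals are at 95% and use this SE with the t distribution.

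Named were all members, the 5 genes most correlated with the members' mean standardized level, and of each other list the genes called, or up to 3 with the largest fold change in WT against ET. The members and lists were chosen with earlier results of these data known. Most same-numbered libraries did not deviate together, and 4 of 18 pairs correlated over 0.1. Replicate 2 of ET correlated with replicate 2 of WT (0.31) and of the K238R-labelled libraries (0.25), and these latter also with each other (0.32). The main fit did not pair libraries by number. Transcript lengths came from GENCODE M21 and promoters from RefSeq; Piwil2 had no entry there. Alternatives covered normalization, test, filter, libraries in the fit, replicate block and each library left out.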

Additional observations from a re-analysis of the deposited data

How the results depend on the processing

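Over 19 alternatives, and where the member passed the filter, the 22 member fold changes named as past an unadjusted p or without overlap were recomputed. They gave 376 values on the same side of the adjusted threshold and 34 that newly passed it, with none reversed. No member had passed in the main fit, so none could drop back, and groups without overlap leave little room for a change of sign. All 160 recomputed mean CPM values moved by less than the SD between replicates. For means with 1 of 3 libraries left out this was fixed by arithmetic, so it is no sign of stability. Counts of genes called varied widely between alternatives. For WT against ET, the K238R-labelled libraries against WT, K412R against WT, the K238R-labelled libraries against ET, K412R against ET and K412R against the K238R-labelled libraries, edgeR called 9, 32, 372, 0, 0 and 4 genes and DESeq2 called 1871, 785, 1649, 10, 87 and 351. Without a filter on low counts the numbers, in that order and leaving out the fourth, were 194, 272, 614, 3 and 31. With only the libraries compared in the fit they were 0 for WT against ET (where 5357 genes had an unadjusted p under 0.05 in the fit of all libraries), 360 and 1897 for the comparisons with WT, and 52 for K412R against the K238R-labelled libraries. With the replicate block they were 917, 208 and 1155 for the first 3 comparisons and 0 for the last. No library (0 of 12) correlated best with its own number in every other group. Whether the numbers mark shared animals or batches is not given in the sources used here. Leaving out ET replicate 2 and WT replicate 1 together gave 7006, 2109, 3399, 369 and 223, leaving out the fourth. Leaving out each library gave 0 to 5820, 2 to 807, 10 to 1540, 0 to 0, 0 to 256 and 0 to 193, and the highest value of each range but the fourth came without ET replicate 2.

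Members at an unadjusted p under 0.05 numbered 1, 5, 1, 4, 1 and 6 in the same order. They were 2 for WT against ET by DESeq2, 2 for it and 2 for K412R against ET without a filter, and 3 for the K238R-labelled libraries against WT where a CPM of at least 1 was asked for in 3 libraries, a filter that removes low members from the test. Without ET replicate 2 and WT replicate 1 they were 3 for WT against ET, 2 for K412R against WT and 3 for K412R against ET. Leaving out each library gave 1 to 3, 3 to 7, 1 to 2, 2 to 5, 0 to 3 and 3 to 6. The share of all genes by this rule was not computed for these alternatives. For Asz1 in the K238R-labelled libraries against WT the log2 fold change ran from 2.08 to 6.96, the highest where WT replicate 1, which holds all 7 WT counts, was left out, and that value depends on the prior count. Members with fewer than 30 counts in every library, such as Piwil1 and Tdrd9, are limited by counting error. The cause of the other shifts was not tested.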

Other observations

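The Argonaute clade and the microRNA machinery, relatives of the Piwi arm, were followed in 8 genes, all tested. For WT against ET 0 passed after adjustment in edgeR or DESeq2 and 3 were lower at an unadjusted p, a rule that 29.1% of all genes met in this comparison, with a median log2 fold change of -0.23. Repressor complexes of germline promoters (PRC1.6 and partners, 13 genes) had 5 lower at an unadjusted p for WT against ET, against the same 29.1%. Their median was -0.34. After adjustment edgeR called 0 of them and DESeq2 called 2 lower, against 0.0489% and 10.5% of all genes. For the K238R-labelled libraries against ET 0 of 13 passed at an unadjusted p, against 5.58% of all genes, and the median was -0.08. Of 8 DNA methylation enzymes and cofactors, Dnmt3l was the 1 called in edgeR, at 5.78 in WT against ET, -7.37 in the K238R-labelled libraries against WT, -2.49 in K412R against WT and 4.89 in K412R against the K238R-labelled libraries, with edgeR adjusted p-values of 0.0114, 0.00240, 0.0330 and 0.0451. DESeq2 also called Dnmt3l in K412R against ET (adjusted p = 0.00558) and Uhrf1, which guides maintenance methylation, lower in WT against ET (adjusted p = 0.0216); Uhrf1 was named after its value was seen.

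Of 12 naive pluripotency markers 5 were lower in WT against ET at an unadjusted p, against 29.1% of all genes, with a median of -1.84. After adjustment DESeq2 called 2 of the 12 lower, against 10.5% of all genes. Of 9 cardiac markers 6 were tested, with a median of 1.01 in WT against ET, 4 positive and 2 negative. At an unadjusted p 0 passed in edgeR, against 29.1% of all genes, and 1 in DESeq2, for which no share was computed. Of 9 motile cilium markers Dnah9, an axonemal dynein, was called by edgeR in K412R against WT at 0.52 (SE 0.09, edgeR adjusted p = 0.0214). There edgeR called 2.02% of all genes. DESeq2 called 2 higher in WT against ET (10.5% of all genes), Dnah5 and Dnai1, named after their values were seen. It called 1 lower in the K238R-labelled libraries against WT (4.13%), Dnah5, and 1 higher in K412R against WT (9.26%). In K412R against the K238R-labelled libraries it called 2 higher (1.85%).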
